A study of Mus musculus with 9 samples.

Results

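The non-fibrillar collagens were taken as every gene of the gene table whose symbol has the form Col, a number, a and a number, except Col1a1, Col1a2, Col3a1, Col5a1, Col5a2 and Col5a3. This gave 38 of 53713 genes, out of 44 symbols of that form. The label and the rule differ in 5 genes: Col2a1, Col11a1, Col11a2, Col24a1 and Col27a1 encode fibrillar chains that the rule keeps, and they are described apart. The rule uses no measured value. Over the 4616 kept cells, 19 of the 38 genes had at least 30 UMIs (unique molecular identifiers, each standing for 1 captured transcript), 10 had 1 to 29 UMIs, and 9 had none.

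The series profiled dissociated mouse liver cells by single-cell RNA sequencing on microwell chips in a model of toxic liver fibrosis, in which carbon tetrachloride (CCl4) is injected. The first group was made up of clusterin knockout (CluKO) C57BL/6J mice, 6 to 8 weeks old by their labels, that received human recombinant clusterin during the CCl4 injections, for a time that their labels do not give. The other groups were wild-type C57BL/6J mice of the same labelled age, with CCl4 for 0, 2 or 4 weeks and 1 sample each. The 6 CluKO samples, from 3 mice by the design text, lie together in 1 matrix of 4694 cells and 28912707 UMIs, with no map from cells to samples.

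The rows of the wild-type matrices, of 7739 to 20215 cells each, are not paired with gene names, so that genotypes and times were not compared here. The CluKO matrix is therefore 1 pooled sample, every value below describes its cells, and no p-value could be given. Intervals are exact 95% intervals for counting error only, and they hold no spread between mice. Clu itself, the gene labelled as deleted, had 13751 UMIs in the kept cells. Since the labels do not say which part was deleted, a 3' tag does not check the label, and the cells are called the matrix labelled CluKO.

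Collagens are trimers of chains wound into a triple helix. The non-fibrillar types build the sheet of basement membranes (type IV), beaded microfilaments that tie cells to the surrounding matrix (type VI), and linkers on the surface of the banded fibrils (types XII, XIV and XVI), or sit at the basement membrane zone (types XV and XVIII). In the liver, stellate cells, fibroblasts, vascular endothelium and the mesothelium that covers the organ are known sources of them.

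The 6 type IV genes lie in the mouse genome as 3 head-to-head pairs, and their levels below are given by pair. In GRCm38, Col4a1 lies on chromosome 8 at 11198423 to 11312826 (minus strand) and Col4a2 at 11312805 to 11449287 (plus strand), so that the 2 genes share 22 bases at their starts. Col4a4 (chromosome 1, 82448423 to 82586849, minus strand) and Col4a3 (82586921 to 82722059, plus strand) are 71 bases apart. Col4a6 (chromosome X, 141165403 to 141474076, minus strand) and Col4a5 (141475385 to 141689234, plus strand) are 1308 bases apart. Windows at the starts of Col4a1, Col4a4, Col4a6 and Col4a5 are shown because the pairs had different levels across cell types. They come from RefSeq (GRCm38.p6), run 5′ to 3′ on the strand of the named gene, and hold 250 bases before its start and 50 after it. The Col4a1 window (chr8:11312777-11313076, minus strand) also spans the start of Col4a2, and the Col4a4 window (chr1:82586800-82587099, minus strand) that of Col4a3. The Col4a6 window lies at chrX:141474027-141474326 (minus strand) and the Col4a5 window at chrX:141475169-141475468 (plus strand). Capitals mark the motifs GGGCGG (called GC box here) and CCAAT (CAAT box), each searched on both strands, so that a reverse complement is also marked.
Col4a1: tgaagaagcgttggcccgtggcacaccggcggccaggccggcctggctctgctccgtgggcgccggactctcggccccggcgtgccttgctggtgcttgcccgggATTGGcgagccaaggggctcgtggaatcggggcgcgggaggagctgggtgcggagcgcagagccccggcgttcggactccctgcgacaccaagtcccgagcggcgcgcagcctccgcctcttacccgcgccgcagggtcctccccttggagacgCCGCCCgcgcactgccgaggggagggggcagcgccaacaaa
Col4a4: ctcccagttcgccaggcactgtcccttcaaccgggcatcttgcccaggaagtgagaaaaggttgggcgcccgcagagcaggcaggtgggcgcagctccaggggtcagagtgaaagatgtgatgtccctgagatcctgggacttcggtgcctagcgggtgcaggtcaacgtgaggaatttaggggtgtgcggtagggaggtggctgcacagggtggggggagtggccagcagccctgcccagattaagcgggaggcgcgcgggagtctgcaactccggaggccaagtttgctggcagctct
Col4a6: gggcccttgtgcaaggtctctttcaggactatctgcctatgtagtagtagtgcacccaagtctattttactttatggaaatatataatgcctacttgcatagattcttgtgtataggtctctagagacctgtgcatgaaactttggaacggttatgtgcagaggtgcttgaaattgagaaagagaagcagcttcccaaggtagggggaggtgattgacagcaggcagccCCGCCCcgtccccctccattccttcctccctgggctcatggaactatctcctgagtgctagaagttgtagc
Col4a5: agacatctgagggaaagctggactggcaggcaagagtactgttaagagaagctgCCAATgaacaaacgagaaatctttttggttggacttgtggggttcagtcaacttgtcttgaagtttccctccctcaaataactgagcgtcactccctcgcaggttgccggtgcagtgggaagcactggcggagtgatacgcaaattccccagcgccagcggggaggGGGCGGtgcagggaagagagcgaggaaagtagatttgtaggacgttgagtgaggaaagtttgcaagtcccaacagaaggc
The Col4a1 window held 1 GC box and 1 CAAT box, and 74.0% of its bases were guanine or cytosine. The Col4a5 window held 1 of each, the Col4a6 window 1 GC box, and the Col4a4 window neither. The Col4a2 window, which is not shown, held 3 GC boxes and 1 CAAT box. Of all 32851 RefSeq windows of this length, 35.7% held the GC box letters and 37.4% the CAAT box letters.

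The collagen UMIs lay mostly in mesothelial-like cells. These were the 501 cells with UMIs of at least 5 of 14 mesothelial markers, among them Msln, Upk3b and Wt1, and none of the gates used a collagen. They held 10518 of the 11645 UMIs of the 38 genes (90.3%) in 10.9% of the kept cells. Their summed level was 2504 CPM (UMIs per 1000000 UMIs of a cell class), against 37.3 CPM in the 4094 other cells compared with them. The 3 main fibrillar genes, Col1a1, Col1a2 and Col3a1, together had 5616 CPM in mesothelial-like cells and 53.0 CPM in the other cells.

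Other classes had few collagen UMIs. The 1968 macrophage-like cells had 24.6 CPM of the 38 genes and the 612 hepatocyte-like cells 45.4 CPM. T and NK cell-like and neutrophil-like cells, which are not known to make these collagens, had 15 UMIs in 260 cells, or 12.5 CPM. A level near that is read here as background. Its source, such as free RNA, was not tested. The median depth was 7251 UMIs per mesothelial-like cell, 5161.5 per macrophage-like cell, 3278.5 per hepatocyte-like cell and 3590.5 per cell of that background class. Few cells passed the gates of classical collagen makers: 6 that for fibroblasts and stellate cells and 16 that for endothelial cells. These classes are therefore given by UMI counts. The gate for fibroblasts and stellate cells admits no cell with more than 2 mesothelial markers. Cells with more of them are not among the 6, whatever their fibroblast markers. A further 115 cells that met the gates of 2 classes had 214 collagen UMIs and entered no class. Another 10 cells with 3 or 4 mesothelial markers had 113 collagen UMIs, and 11439 CPM of Col1a1, Col1a2 and Col3a1 together. The 4094 other cells hold the remaining classes, 304 cells of no class and 104 of these 115 cells; 11 cells that met the mesothelial gate and another, and the 10 cells, entered neither side.

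**Figure D1:**
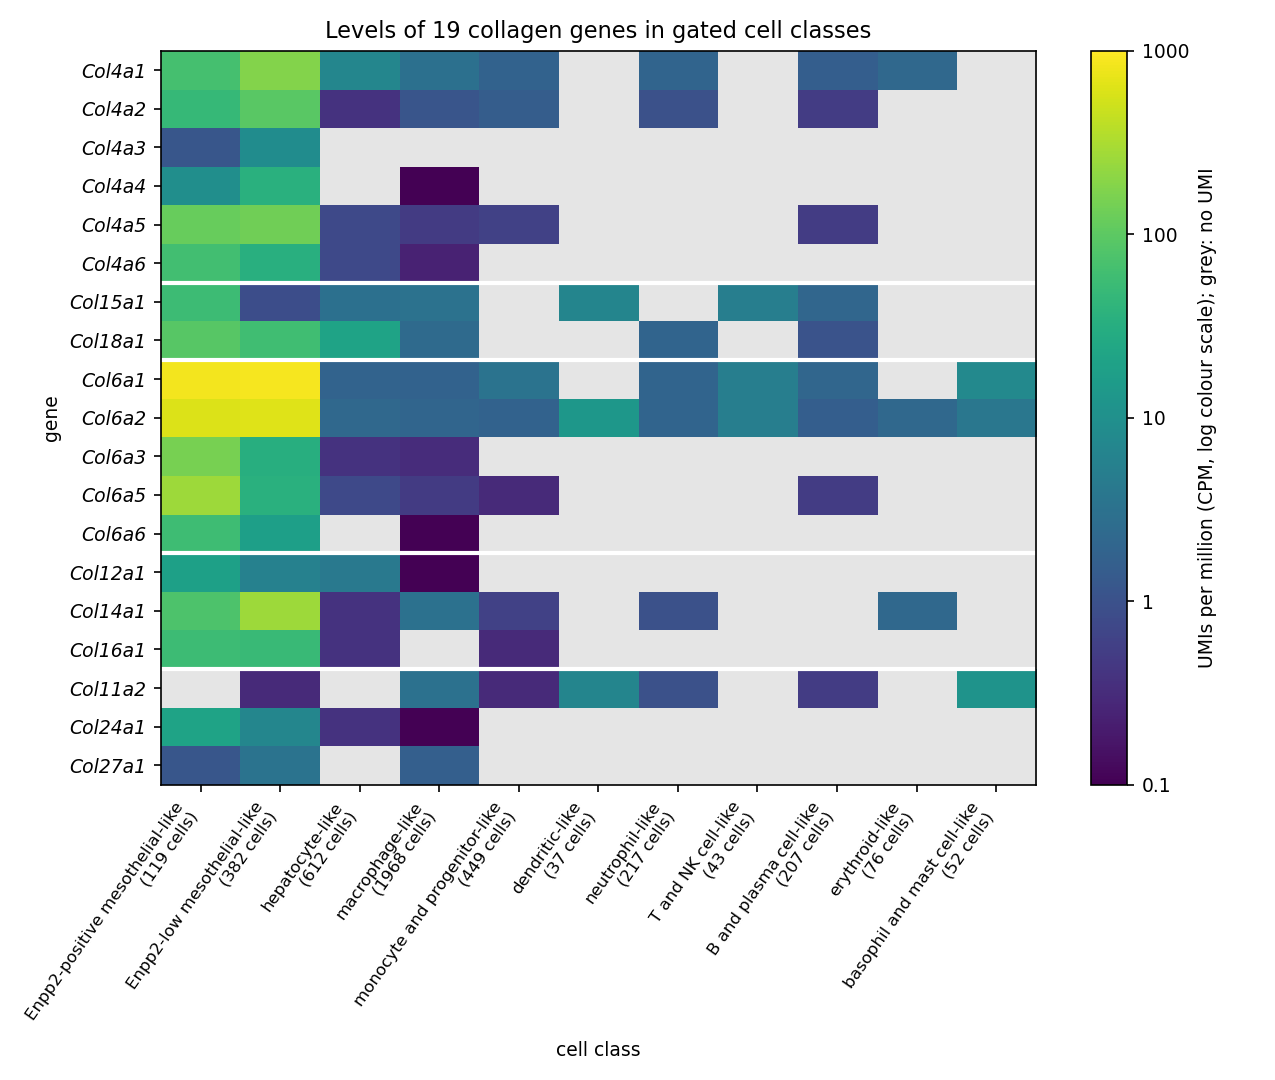
Level of each of the 19 genes with at least 30 UMIs (down the page, grouped by structural type) in gated cell classes of at least 20 cells (across), in CPM on a log colour scale, with grey where no UMI was found. The 2 mesothelial-like columns carry the high levels, with Col6a1 and Col6a2 above 600 CPM in both. Col11a2 does not follow that order, nor does Col27a1 for Enpp2-positive cells or Col15a1 for Enpp2-low cells.

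Of the 38 genes, 19 had at least 30 UMIs in mesothelial-like and other cells together. On a log2 ratio with 20 CPM added to each side, 13 of the 19 were at least 2-fold higher in mesothelial-like cells and 0 at least 2-fold lower. Over all 13745 genes with that many UMIs, 8.28% were 2-fold higher and 6.32% were 2-fold lower. The median log2 ratio of the 19 genes was 1.78, against 0.02 for all genes. The 13 genes were Col4a1, Col4a2, Col4a4, Col4a5, Col4a6, Col6a1, Col6a2, Col6a3, Col6a5, Col6a6, Col14a1, Col16a1 and Col18a1.

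Type VI collagen, the beaded filament collagen, had the highest levels. Its trimer holds an α1 chain (Col6a1), an α2 chain (Col6a2) and a long chain that is α3 (Col6a3) or one of the chains that resemble it, α4 (Col6a4), α5 (Col6a5) or α6 (Col6a6). A UMI counts 1 captured 3' end, so the levels of different genes are not divided by gene length, although genes can still differ in capture. Col6a1 had 876 CPM (848 to 905) in mesothelial-like cells, where 92.8% of cells had a UMI, against 3.20 CPM in the other cells. Col6a2 had 634 CPM (610 to 658) in mesothelial-like and 2.83 CPM in the other cells. In the background class, 0.769% of cells had a Col6a1 UMI.

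The long chains were much scarcer. In mesothelial-like cells Col6a5 had 80.0 CPM (71.7 to 89.0), Col6a3 56.2 CPM (49.2 to 63.8) and Col6a6 26.2 CPM (21.5 to 31.6), with non-overlapping intervals, and Col6a4 had no UMI. Together the long chains had 682 UMIs, or 0.185 per Col6a1 UMI (0.170 to 0.201). The 6 fibroblast and stellate-like cells had 44 long-chain UMIs against 27 of Col6a1, a ratio of 1.63 (0.987 to 2.74).

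The kind of long chain differed as well. Col6a5 made up 49.3% (45.5 to 53.1) of the long-chain UMIs of mesothelial-like cells and 2 of 44 (4.55%, 0.555 to 15.5) in the fibroblast and stellate-like cells. There Col6a3 made up 88.6%, with 39 UMIs, of which 26 came from 1 cell, so that the share and the ratio of 1.63 rest on few cells. The 16 endothelial-like cells had no type VI UMI.

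Type IV collagen forms 3 kinds of trimer: α1 and α2 chains in basement membranes of nearly all tissues, and the α3, α4 and α5 or the α5 and α6 chains in a few specialised ones. Mesothelial-like cells had UMIs of all 6 chains. Their levels, in the order of chain number from Col4a1 to Col4a6, were 160, 84.3, 7.38, 29.8, 131 and 38.8 CPM. Col4a5 was thus nearly as high as Col4a1, with intervals of 120 to 142 and of 148 to 173 CPM.

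By pair, Col4a1 and Col4a2 made up 54.2% (51.9 to 56.4) of the 1894 type IV UMIs of mesothelial-like cells, Col4a5 and Col4a6 made up 37.6% (35.4 to 39.8), and Col4a3 and Col4a4 8.24% (7.04 to 9.57). All 61 type IV UMIs of the endothelial-like cells were of Col4a1 (38) and Col4a2 (23), which allows the other pairs a share of up to 5.87% each by the interval. Of the 59 type IV UMIs in fibroblast and stellate-like cells, 56 were of Col4a1 and Col4a2 and 3 of Col4a5. Single cells gave 20 of the 33 Col4a1 UMIs and 15 of the 23 Col4a2 UMIs there. All 31 Col4a3 UMIs and 125 of 128 Col4a4 UMIs of the matrix lay in mesothelial-like cells.

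Members of a pair were not at equal levels. In mesothelial-like cells there were 1.90 Col4a1 UMIs per Col4a2 UMI (1.67 to 2.17), 4.03 Col4a4 UMIs per Col4a3 UMI (2.70 to 6.18) and 3.37 Col4a5 UMIs per Col4a6 UMI (2.82 to 4.04). In endothelial-like cells the ratio of Col4a1 to Col4a2 was 1.65 (0.959 to 2.90), an interval that includes the mesothelial value. The last 2000 bases of Col4a1 and Col4a3 overlap genes on the opposite strand, Gm15418 and C430014B12Rik, and no source used here says whether counting used strand. Gm15418 had 0 UMIs in mesothelial-like cells and C430014B12Rik had 8.

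The multiplexins Col15a1 and Col18a1 encode collagens of the basement membrane zone, and Col18a1 is the source of the fragment endostatin. Among mesothelial-like cells Col18a1 stood at 65.5 CPM (58.0 to 73.7), against 4.68 CPM among the others. Hepatocyte-like cells had 20.8 CPM (15.7 to 27.1) of it, from 55 UMIs in 42 of 612 cells (6.86%), against 0.769% in the background class. Macrophage-like cells had 2.37 CPM and the endothelial-like cells no UMI. The 55 Col18a1 UMIs of hepatocyte-like cells stood beside 38 UMIs of Col1a1, Col1a2 and Col3a1, against 275 beside 23587 in mesothelial-like cells. Slc19a1 overlaps the last 2000 bases of Col18a1 on the opposite strand, and it had 3 UMIs in hepatocyte-like cells.

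Col15a1 was spread over classes. It had 50 UMIs (11.9 CPM) in mesothelial-like cells, 39 (3.19 CPM) in macrophage-like cells, 8 (3.03 CPM) in hepatocyte-like cells and 7 in the 6 fibroblast and stellate-like cells. Mesothelial-like cells thus held 43.5% of its 115 UMIs, against 77.8% to 100% for the type IV genes and 78.4% to 96.2% for the type VI genes with UMIs.

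The fibril-associated collagens are short helices that attach to banded fibrils. Col14a1 was the highest of them, at 224 CPM (210 to 239) among mesothelial-like cells and 3.82 CPM among the others, 58.6-fold (47.3 to 73.4) apart. Col16a1 had 52.6 CPM in mesothelial-like cells and 0.123 CPM in the others, and all but 6 of its 227 UMIs were mesothelial-like. Col12a1 had 8.33 CPM in mesothelial-like cells and 0.698 CPM in the others, with 11 UMIs in 10 hepatocyte-like cells. Col20a1 had 8 UMIs, 5 of them in macrophage-like cells, and Col9a3 had 8, of which 6 were in macrophage-like cells. Col9a1, Col9a2, Col19a1 and Col22a1 had none.

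Among the fibrillar chains that the rule keeps, Col24a1, known from bone, was found in mesothelial-like cells (41 of 43 UMIs). Col11a2, known from cartilage, had 1 UMI (0.238 CPM) in mesothelial-like cells and 38 (3.11 CPM) in macrophage-like cells. Col27a1, also a cartilage collagen, had 12 UMIs in mesothelial-like and 20 in macrophage-like cells. By level, Col27a1 was higher in mesothelial-like cells, at 2.86 CPM against 1.64 CPM in macrophage-like cells. Of the transmembrane collagens, Col13a1 had 6 of its 8 UMIs in 4 of the 16 endothelial-like cells, and Col25a1 had 5 UMIs in 2 hepatocyte-like cells, 4 of them in 1 cell. Col23a1 had 4 UMIs, with no more than 1 in any named class, and Col17a1 had 1, in a dendritic-like cell.

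The short-chain and remaining members were at the edge of detection. All 17 Col8a2 UMIs were in mesothelial-like cells, whereas 5 of the 9 Col8a1 UMIs were in fibroblast and stellate-like cells. Col7a1, which forms anchoring fibrils, had 4 UMIs in 3 macrophage-like cells, and Col28a1 had 1 UMI, in a mesothelial-like cell. The members at 0 were Col2a1, Col6a4, Col9a1, Col9a2, Col10a1, Col11a1, Col19a1, Col22a1 and Col26a1, where 0 UMIs have an exact upper bound of 0.129 CPM over all kept cells.

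Mesothelial-like cells were then split by Enpp2, the gene of the secreted enzyme autotaxin, since earlier results of these data had shown Col6a5 and fibrillar collagens high beside it, and the values are given as a description. The 119 Enpp2-positive cells had at least 2 Enpp2 UMIs and a median of 6209 UMIs, and the 382 Enpp2-low cells had a median of 7788 UMIs. The sum of the 38 genes was nearly the same, at 2556 CPM in Enpp2-positive and 2491 CPM in Enpp2-low cells, while Col1a1, Col1a2 and Col3a1 together had 13031 CPM in Enpp2-positive and 3744 CPM in Enpp2-low cells. Within the near-equal sum, single genes differed in both directions. Of the 17 members with at least 30 UMIs in the 2 sides together, 4 were at least 2-fold higher in Enpp2-positive cells and 2 at least 2-fold lower, where 1.81% and 2.06% of all 9779 genes were. The median log2 ratio was 0.04 for the 17 members and 0.02 for all genes.

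**Figure D2:**
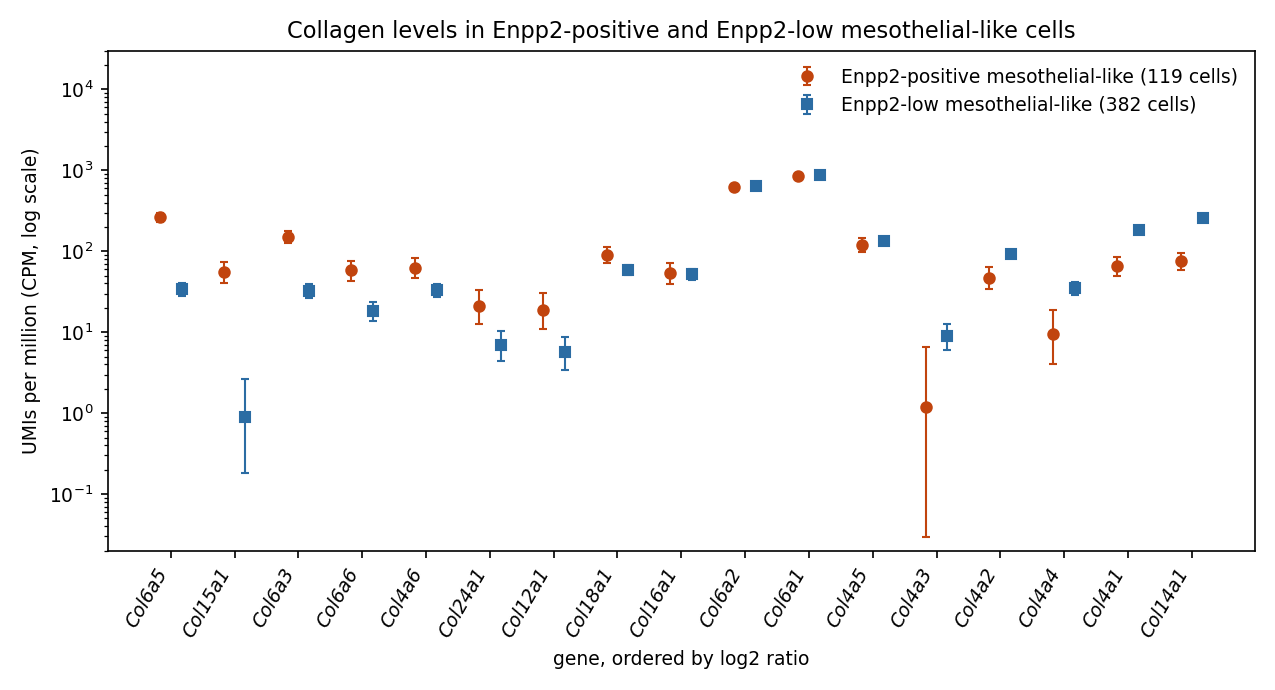
Level of 17 collagen genes in Enpp2-positive (circles, left of each pair) and Enpp2-low (squares) mesothelial-like cells, in CPM on a log scale with exact 95% counting intervals, ordered by log2 ratio. Col6a5, Col15a1, Col6a3 and Col6a6 stand higher in Enpp2-positive cells, Col6a1 and Col6a2 are close to equal, and Col4a1 and Col14a1 stand lower.

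The higher genes were the long type VI chains and Col15a1. Col6a5 had 262 CPM (229 to 299) in Enpp2-positive cells and 34.0 CPM (28.0 to 40.8) in Enpp2-low cells, a ratio of 7.71 (6.13 to 9.76), and it was found in 48.7% of Enpp2-positive and 8.90% of Enpp2-low cells. With each cell thinned to 1000 UMIs the shares were 18.5% in Enpp2-positive and 3.14% in Enpp2-low cells. Col6a3 had 151 CPM in Enpp2-positive and 32.2 CPM in Enpp2-low cells, a ratio of 4.70 (3.61 to 6.12). Col6a6 had 57.9 CPM in Enpp2-positive and 18.2 CPM in Enpp2-low cells, a ratio of 3.18 (2.14 to 4.71). Col6a1 and Col6a2, the partners of these chains in the trimer, had ratios of 0.952 (0.876 to 1.03) and 0.969 (0.879 to 1.07).

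The long chains therefore stood at 0.560 per Col6a1 UMI (0.494 to 0.633) in Enpp2-positive cells and at 0.0954 (0.0841 to 0.108) in Enpp2-low cells. Col6a5 made up 55.6% (50.6 to 60.6) of long-chain UMIs in Enpp2-positive and 40.3% (34.5 to 46.3) in Enpp2-low cells. Col15a1 had 47 UMIs in 16 Enpp2-positive cells (55.5 CPM) and 3 UMIs in 3 Enpp2-low cells (0.895 CPM), and the ratio of 62.1 has an interval of 20 to 312. Of the 47 UMIs, 13 came from 1 cell.

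Col14a1 and the first type IV pair went the other way. Col14a1 had 75.6 CPM (58.2 to 96.5) in Enpp2-positive cells and 261 CPM (244 to 279) in Enpp2-low cells, 3.46-fold lower (2.68 to 4.53). It was found in 27.7% of Enpp2-positive and 69.6% of Enpp2-low cells, and after thinning in 10.9% of Enpp2-positive and 27.0% of Enpp2-low cells. Col4a1 had 65 CPM in Enpp2-positive and 184 CPM in Enpp2-low cells, 2.83-fold lower (2.15 to 3.80), and Col4a2 had 47.3 CPM in Enpp2-positive and 93.6 CPM in Enpp2-low cells, 1.98-fold lower (1.42 to 2.83). Col4a4 had 8 UMIs in Enpp2-positive and 117 in Enpp2-low cells, and Col4a3 had 1 UMI in Enpp2-positive and 30 in Enpp2-low cells.

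The type IV pairs shifted against each other. Col4a5 had 119 CPM in Enpp2-positive and 134 CPM in Enpp2-low cells, a ratio of 0.893 (0.712 to 1.11), and Col4a6 had 62.6 CPM in Enpp2-positive and 32.8 CPM in Enpp2-low cells, a ratio of 1.91 (1.35 to 2.67). Col4a5 and Col4a6 made up 59.7% (53.4 to 65.7) of type IV UMIs in Enpp2-positive cells and 34.1% (31.8 to 36.5) in Enpp2-low cells. The Col4a1 and Col4a2 pair made up 36.8% (30.9 to 43.0) in Enpp2-positive and 56.9% (54.5 to 59.3) in Enpp2-low cells. There were 1.91 Col4a5 UMIs per Col4a6 UMI (1.35 to 2.71) in Enpp2-positive and 4.07 (3.30 to 5.06) in Enpp2-low cells.

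**Figure D3:**
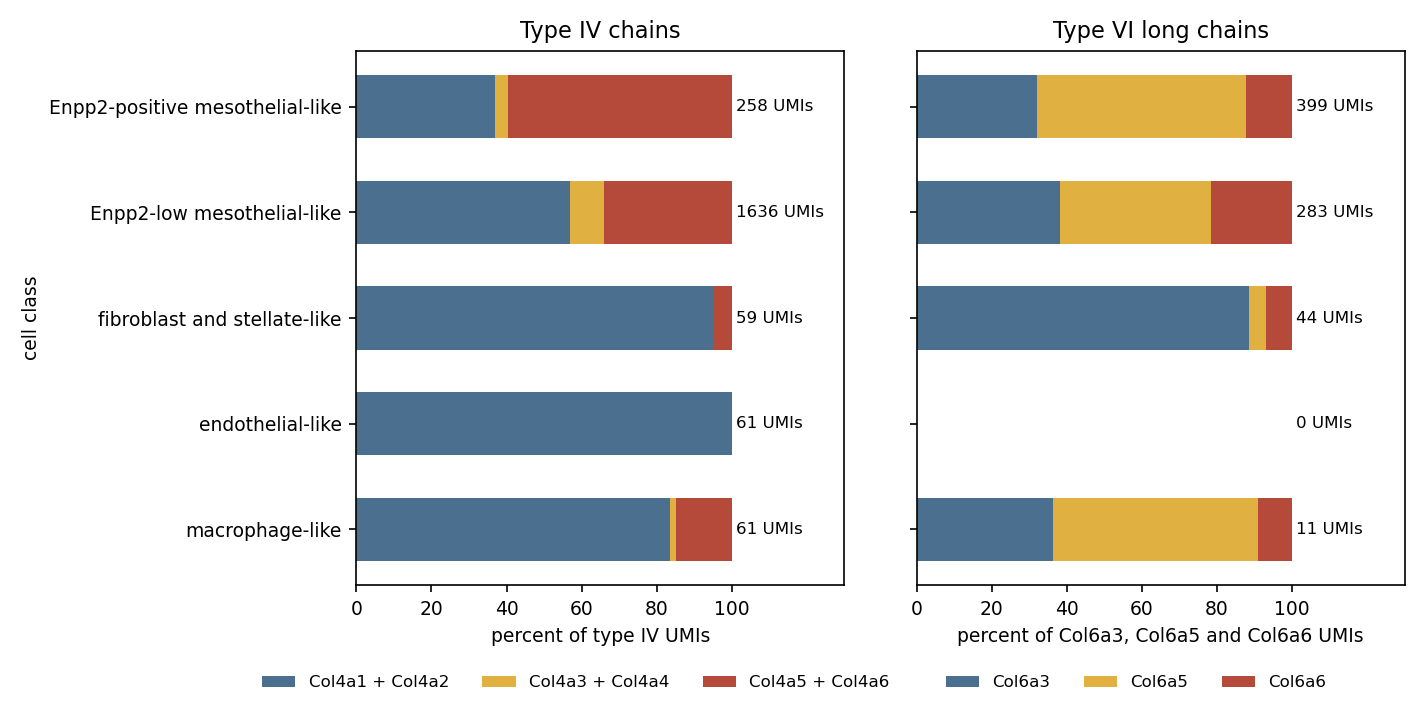
Share of each head-to-head pair among type IV UMIs (left) and of each long chain among type VI long-chain UMIs (right) in 5 cell classes, as percent, with the number of UMIs behind each bar. Col4a5 and Col4a6 (red, left) reach 59.7% in Enpp2-positive and 34.1% in Enpp2-low mesothelial-like cells and are absent from the 61 endothelial-like UMIs, and Col6a5 (yellow, right) reaches 55.6% in Enpp2-positive and 40.3% in Enpp2-low mesothelial-like cells.

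The remaining members differed less. Col18a1 had 91.0 CPM in Enpp2-positive and 59.0 CPM in Enpp2-low cells, a ratio of 1.54 (1.17 to 2.01), and Col16a1 had 54.3 CPM in Enpp2-positive and 52.2 CPM in Enpp2-low cells, a ratio of 1.04 (0.736 to 1.45). Col12a1 had 16 UMIs in Enpp2-positive and 19 in Enpp2-low cells, a ratio of CPM of 3.34 (1.60 to 6.85). Col24a1 had 18 UMIs in Enpp2-positive and 23 in Enpp2-low cells, a ratio of 3.10 (1.58 to 6.00). Both stayed under 2-fold once 20 CPM was added to each side.

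Markers of other cell types moved with the split. Of 12 fibroblast markers, 9 were higher in Enpp2-positive cells, and their summed level was 11018 CPM in Enpp2-positive and 6342 CPM in Enpp2-low cells, mostly from Dcn, with Mfap4 at 0 in both. Of 13 stellate markers, 4 were higher in Enpp2-positive cells, namely Ngfr, Pdgfrb, Des and Bco1. The 13 together had 592 CPM in Enpp2-positive and 711 CPM in Enpp2-low cells. Pdgfrb had 10.6 CPM in Enpp2-positive and 1.79 CPM in Enpp2-low cells. Cygb had 5.91 CPM in Enpp2-positive and 147 CPM in Enpp2-low cells. Reln and Rgs5 were at 0 in both. Lrat, Hhip and Tcf21 were at 0 in Enpp2-positive cells and had 2, 1 and 5 UMIs in Enpp2-low cells. Of 14 mesothelial markers, 2 were higher in Enpp2-positive cells, with 5283 CPM in Enpp2-positive and 9442 CPM in Enpp2-low cells, and none was at 0. The part of these markers in the collagen differences was not tested. Without cycling cells, which leaves 73 Enpp2-positive and 252 Enpp2-low cells, the log2 ratios were 2.38 for Col6a5, 1.75 for Col6a3, 2.17 for Col15a1 and -1.73 for Col14a1, against 2.39, 1.71, 1.85 and -1.56 with them.

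When the split was made on Cxcl13 in place of Enpp2, which gives 23 positive and 478 other cells, Col6a5, Col6a3 and Col15a1 kept log2 ratios of 2.27, 1.35 and 2.25. Under it Col6a6 turned to -0.84, Col12a1 to -0.52 and Col4a6 to -0.20, while Col14a1 stood at -0.53 and Col4a1 at -0.52. With at least 3 Enpp2 UMIs asked of a positive cell, the log2 ratio of Col6a6 was 0.68, under 2-fold.

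Genes that handle collagen or bind the matrix were read in the same comparisons, from 3 lists. Of 25 genes of collagen folding and crosslinking with enough UMIs, 15 were at least 2-fold higher in mesothelial-like than other cells and 1 lower. Of all genes, 8.28% were higher and 6.32% lower between these cells. Serpinh1, the collagen chaperone, had 1955 CPM in mesothelial-like and 11.7 CPM in other cells. Pxdn, whose product peroxidasin crosslinks type IV collagen, had 53.8 CPM in mesothelial-like and 0.657 CPM in other cells. Between Enpp2-positive and Enpp2-low cells, 1 of 23 was higher, Bmp1, a procollagen protease, with 193 CPM in Enpp2-positive and 71.6 CPM in Enpp2-low cells, and 0 were lower. With 1.81% of all genes higher and 2.06% lower in this comparison, 1 gene of 23 is no result about the list. The counts of the next lists between the Enpp2 groups are also small and are given as a description.

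Among 18 basement membrane partners of the collagens, 15 were at least 2-fold higher in mesothelial-like than in other cells and 0 lower. The shares of all genes were 8.28% higher and 6.32% lower. Sparc, which binds collagen, was the highest, with 4360 CPM in mesothelial-like and 33.9 CPM in other cells. Between the Enpp2 groups, 2 of 17 were lower (2.06% of all genes) and 1 higher (1.81%). The laminin α5 gene Lama5 had 17.7 CPM in Enpp2-positive and 134 CPM in Enpp2-low cells, and Smoc2 had 5.91 CPM in Enpp2-positive and 85.0 CPM in Enpp2-low cells, while Fbln1 had 324 CPM in Enpp2-positive and 144 CPM in Enpp2-low cells. Fbln1 is also on the list of fibroblast markers.

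The last list held receptors for collagen or for other matrix proteins. Of 13 with enough UMIs, 6 were at least 2-fold higher in mesothelial-like than in other cells (8.28% of all genes). They were Itga3, Itgb4, Ddr1, Ddr2, Antxr1 and Dag1. Of the 13, 1 was lower (6.32%). Ddr1, a receptor tyrosine kinase for collagen, had 146 CPM in mesothelial-like and 1.48 CPM in other cells, and Lair1, an inhibitory receptor of immune cells, had 2.14 CPM in mesothelial-like and 108 CPM in other cells. Between the Enpp2 groups 1 of 12 was lower (2.06% of all genes), the integrin gene Itga3, with 18.9 CPM in Enpp2-positive and 65.3 CPM in Enpp2-low cells.

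Macrophage-like cells held 301 collagen UMIs. Members were set against the UMIs of Col1a1, Col1a2 and Col3a1 in the same cells, of which macrophage-like cells had 271 and mesothelial-like cells 23587. Col6a1 and Col6a2 had 81.2 (50 to 125) and 92.3 (58.7 to 139) UMIs per 1000 fibrillar UMIs in macrophage-like cells, against 156 and 113 in mesothelial-like cells. Col11a2 had 140 (97.1 to 197) per 1000 in macrophage-like cells and 0.0424 (0.00107 to 0.236) in mesothelial-like cells. Col27a1 had 73.8 (44.4 to 116) in macrophage-like and 0.509 (0.263 to 0.889) in mesothelial-like cells. Col15a1 had 144 (100 to 202) in macrophage-like and 2.12 (1.57 to 2.80) in mesothelial-like cells, and Col14a1 had 140 (97.1 to 197) in macrophage-like and 39.9 (37.3 to 42.5) in mesothelial-like cells. Col4a1 had 137 (94.1 to 193) in macrophage-like and 28.5 (26.3 to 30.8) in mesothelial-like cells, and Col18a1 had 107 (70.3 to 157) in macrophage-like and 11.7 (10.3 to 13.1) in mesothelial-like cells. The T and NK cell-like and neutrophil-like cells, with 14 fibrillar UMIs, had 71.4 (1.69 to 469) of Col11a2, Col14a1 and Col15a1 each, from 1 UMI each, and B and plasma cell-like cells had 125 (32.1 to 352) of Col15a1. These listed intervals include the macrophage-like values, so for these genes macrophage-like cells cannot be told apart from those classes on this measure. Some other intervals lay below the macrophage-like value. Among them, B and plasma cell-like cells had no Col14a1 UMI (0 to 122 per 1000). Monocyte and progenitor-like cells had no Col15a1 UMI (0 to 89.6 per 1000).

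**Figure D4:**
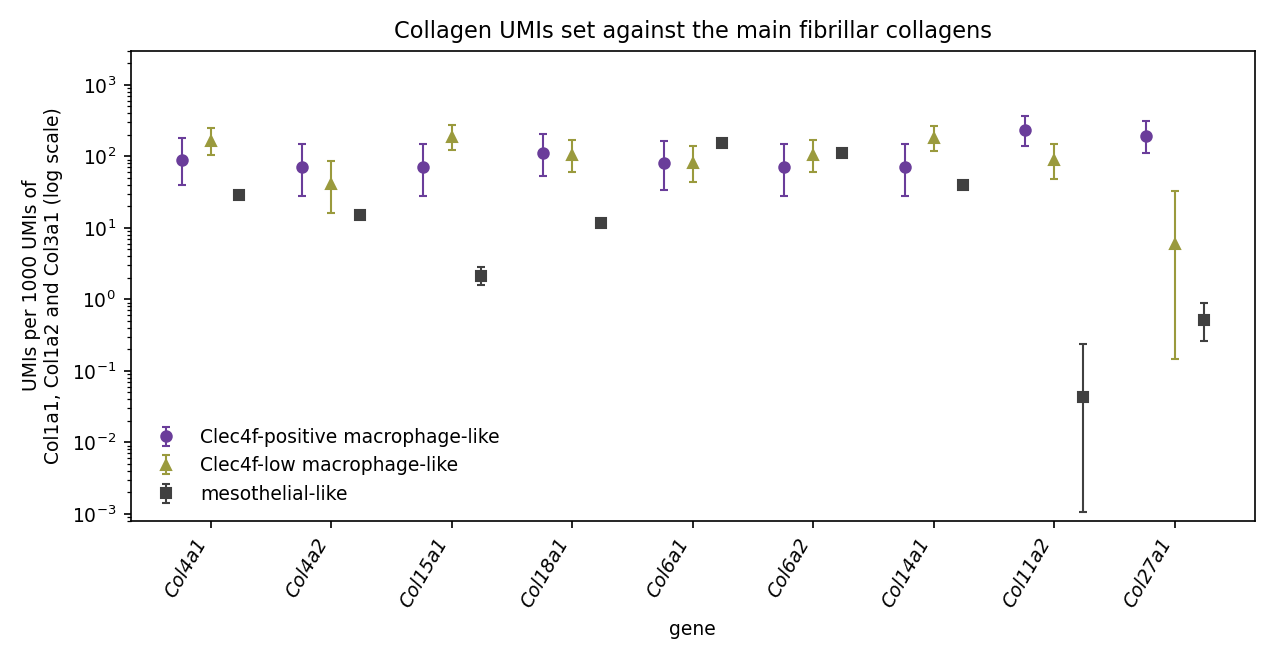
UMIs of 9 collagen genes per 1000 UMIs of Col1a1, Col1a2 and Col3a1 in Clec4f-positive macrophage-like (circles), Clec4f-low macrophage-like (triangles) and mesothelial-like cells (squares), on a log scale with exact 95% counting intervals. Col6a1 is lower in Clec4f-low macrophage-like (81.9, 43.8 to 141) than in mesothelial-like cells (156), while its Clec4f-positive interval (33.6 to 164) includes 156. Col6a2 overlaps in both groups. By intervals that do not overlap, Col4a1, Col11a2, Col15a1 and Col18a1 stand higher in both macrophage-like groups. Col4a2 and Col27a1 do so in the Clec4f-positive group and Col14a1 in the Clec4f-low one.

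Macrophage-like cells were split by Clec4f, a marker of resident Kupffer cells, into 685 cells with at least 2 Clec4f UMIs and 1283 others. Col27a1 had 19 UMIs in 16 Clec4f-positive cells and 1 UMI in Clec4f-low cells, so that 19 of its 20 macrophage-like UMIs (interval 75.1% to 99.9%) were in Clec4f-positive cells. These cells were the shallower ones, with a median of 4201 UMIs against 6116 in Clec4f-low cells. No T and NK cell-like or neutrophil-like cell had a Col27a1 UMI, which allows up to 3.06 CPM there. That bound is above the 1.64 CPM of all macrophage-like cells and below the 6.03 CPM (3.63 to 9.42) of Clec4f-positive ones. The share was 94.7% to 100% in all 10 other settings tried, among them a split on Vsig4. All settings draw on the same few Col27a1 UMIs, so they add no independent support.

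Col11a2 had 7.30 CPM (4.63 to 11.0) in Clec4f-positive and 1.65 CPM (0.925 to 2.73) in Clec4f-low cells, a ratio of 4.42 (2.21 to 9.10). All 6 macrophage-like UMIs of Col9a3 were in Clec4f-positive cells. No member stood above 7.30 CPM in either group, so with 20 CPM added to each side none could reach a 2-fold call. The log2 ratio was then 0.33 for Col11a2 and 0.37 for Col27a1, which also had too few UMIs for a call. Other genes higher in mesothelial-like than in all other cells moved the same way. The ratios were 118 (71.1 to 213) for Cxcl13, 5.24 (2.39 to 12.1) for Enpp2 and 2.18 (1.32 to 3.56) for Col1a1. Clu had a ratio of 1.86 (1.51 to 2.29). Cxcl13 stood at 196 CPM (180 to 212) in Clec4f-positive cells, no lower than its 175 CPM (163 to 188) in mesothelial-like cells. For Col1a2 the ratio was 1.70 (1.04 to 2.75) and for Col3a1 1.42 (0.948 to 2.10), an interval that includes 1. Lrp2 went the other way, with its 1 UMI in Clec4f-low cells. Of these genes, only Cxcl13 was called 2-fold higher with 20 CPM added. The part of these genes in the result was not tested. Per 1000 fibrillar UMIs, Col11a2 had 139 to 365 as its interval in Clec4f-positive and 48.0 to 149 in Clec4f-low cells, which overlap. Col15a1 had 7 UMIs (2.22 CPM) in Clec4f-positive and 32 (3.53 CPM) in Clec4f-low cells, and Col14a1 had 7 (2.22 CPM) in Clec4f-positive and 31 (3.42 CPM) in Clec4f-low cells. For both genes the interval of the ratio included 1, at 0.235 to 1.45 for Col15a1 and 0.242 to 1.51 for Col14a1. All of these are low levels, with a UMI in 3.07% of Clec4f-positive cells for Col11a2 and 2.34% for Col27a1. No gene overlaps the last 2000 bases of Col11a2, Col15a1 or Col27a1.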

How the data were processed

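Values are UMI counts per gene and cell from 3'-tagged GEXSCOPE libraries (Singleron), deposited by the authors as whole-number matrices, per the file headers, and used as deposited. Per the submitters' processing notes, reads were placed on GRCm38. Aligner, counter and strand setting: not given in the sources used here. Of 4694 cells, the 4616 with 200 or more genes and no more than 20% mitochondrial UMIs were used. The smallest cell held 2371 UMIs and the median kept cell 4857. Barcodes did not repeat within the matrix.

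Cells were gated by UMIs of 3 to 8 different markers per class and, for some classes, a minimum share of UMIs. Cells that met gates of 2 lineages entered no class, as possible doublets, and no doublet caller was run. In the comparison with mesothelial-like cells, 104 of these 115 cells and 304 unassigned cells stayed among the other cells. The minima of the gates, the 10 cells set aside and the Clec4f split were chosen after the data were seen, and the members, gene lists and Enpp2 split were chosen with earlier results of these data known. Of 198 markers, 196 were in the gene table.

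UMIs were summed per class and given as CPM with exact Poisson intervals. Shares have Clopper-Pearson intervals, and ratios have conditional binomial intervals. Shares were repeated with cells thinned to 1000 UMIs, which 0 cells fell below. UMIs were counted, but intervals still cover counting error only. Comparisons used genes with at least 30 summed UMIs, an offset of 20 CPM and a 2-fold call, with no test, since the design holds 1 pooled sample. The call and the intervals were run on simulated counts, drawn independently under the counting model that the intervals assume. That check cannot show how the intervals hold where UMIs cluster in single cells. By the naming rule, members with at least 30 UMIs were described by level, those with 1 to 29 by count, and those at 0 were named. Positions came from GENCODE release M21 (GRCm38) and windows from RefSeq, which held 31 of the 38 members. The alternatives were other gates, cell filters, scalings, offsets, count minima, fold limits and splits. Python 3.11.15, numpy 2.4.6, scipy 1.17.1, pandas 2.3.3 and matplotlib 3.10.9 were used. The wild-type matrices, whose rows carry no gene names, were not analysed here beyond their depth.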

Additional observations from a re-analysis of the deposited data

How the results depend on the processing

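Each cell class was a pool of 6 samples in 1 matrix, so that the spread between mice is unknown and low members rest on few UMIs. No paired analysis was possible because the matrix carries no sample for its cells. Of 404 log2 ratios recomputed under the alternatives, 370 moved by less than their counting interval, 33 moved by more, and 1 changed sign after a 2-fold call, that of Col6a6 at -0.84 with the split on Cxcl13. Of 511 levels, 37 moved by more. Of 48 shares of cells with a UMI, 37 left their interval when cells were thinned to 1000 UMIs, which lowers a share by construction. Counts of calls moved by over 1.5 times in 23 of 124 cases, mostly over all genes. For mesothelial-like against other cells, all genes called higher and lower numbered 2167 and 1652 with an offset of 5 CPM, 630 and 497 with 50 CPM, 2130 and 1593 at 1.5-fold, and 612 and 478 at 3-fold. For Enpp2-positive against Enpp2-low cells they numbered 335 and 478 with 5 CPM, 85 and 111 with 50 CPM, 499 and 536 at 1.5-fold, and 59 and 72 at 3-fold. All genes called lower numbered 126 with 1 or more Enpp2 UMIs and 387 with the split on Cxcl13. Of the members in that comparison, 4 were lower with 5 CPM, 7 were higher and 4 lower at 1.5-fold, 0 were lower at 3-fold, and 0 were lower with the split on Cxcl13. A smaller offset and a lower fold limit call more genes by construction, and the cause of the other moves was not tested.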
